A study of Oryctolagus cuniculus with 34 samples.

Results

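Rotator cuff repair reattaches a torn tendon to the bone, and the muscle behind it then has to recover from a period without load. A set of 47 genes was lower in the repaired than in the unoperated supraspinatus muscle of rabbits at each of the 4 times sampled, 1, 2, 4 and 8 weeks after repair. The set was selected on that difference. For each rabbit, the log2 ratio of the repaired to the unoperated side was taken on read counts scaled to a common library total (CPM) with 1 CPM added to each side, and the ratios were averaged over the rabbits of a week. A gene was a member when its mean level was at least 2 CPM and the average log2 ratio was at most -0.4 at all 4 weeks. Of 23669 genes in the table, 10052 reached that level and 49 met the threshold. Of these, FGF6 and ASB10 were left out by name, from a longer list of names, which gave the 47 members. A gene could be left out only where a symbol was at hand, which held for 25.9% of the genes tested. Other genes of that list may thus remain among the members without a symbol. A human ortholog symbol was at hand for 7 members, PPP1R3B, ARG2, SYNPO, TWF2, KHDRBS3, SLC24A2 and LRRC14B, and the other 40 are known here only by rabbit gene identifiers. Their sequences were not analysed here.

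The animals were skeletally mature female New Zealand White rabbits. In every rabbit the left supraspinatus tendon was cut, left detached for 8 weeks and then repaired, and the right shoulder was the control, which the methods call unoperated and the labels call a sham with a cut of the skin. RNA came from the posterior lateral region of the muscle of both shoulders of 17 rabbits, 34 libraries in all, with 5 rabbits sampled 2 weeks after repair and 4 at each of the other times. Both sides come from 1 animal, so the control side had carried the same animal through the same weeks and is not muscle of an untouched rabbit. There was no group with tenotomy alone among these libraries, so the effects of detachment and of repair cannot be told apart.

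The left library of rabbit 3 at 8 weeks failed the quality control of the study, and the rule did not use that rabbit, which leaves 16 rabbits. Totals on genes were 9220035 to 28395188 in the 33 other libraries. The libraries of 1 and 8 weeks carry titles of one series and those of 2 and 4 weeks of another, with median totals of 19343431 and 10625163, so weeks were compared only within a series. The tissue label was checked against 18 markers of muscle fibres, of which TNNT3, DES, PYGM and ENO3 had a symbol. Their summed level was 14772 to 53567 CPM in unoperated and 5512 to 32046 CPM in repaired muscle, and none was at 0 in a group.

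Skeletal muscle is built from fibres of slow and fast types, which differ in their myosins, calcium pumps and fuel use. Slow fibres rely on mitochondria and fast fibres more on glycogen. Unloading and reloading of a muscle are known to change fibre size, fibre type and the actin scaffold that anchors the contractile apparatus. The named members touch several of these processes. PPP1R3B brings protein phosphatase 1 to glycogen, ARG2 is the mitochondrial arginase, SYNPO (synaptopodin) and TWF2 (twinfilin) bind actin, KHDRBS3 is an RNA-binding regulator of splicing, and SLC24A2 exchanges sodium for calcium and potassium across the cell membrane.

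The members ranged from rare to very abundant transcripts. The levels below are CPM after TMM scaling, which corrects the library totals for a few very abundant genes, and they are not divided by gene length, so levels were compared only within a gene. The mean unoperated level of a member was 3.56 to 7767 CPM with a median of 63.8 CPM, against a median of 8.83 CPM over all 12937 genes tested. It was under 10 CPM for 7 members, 10 to 100 CPM for 20 and at least 100 CPM for 20.

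By selection, every member was lower on average at every week, and the depth of the difference varied. The median log2 ratio of the members was -0.82, -0.88, -0.70 and -0.59 in the order of the weeks. On the same unscaled CPM the median over all genes with at least 2 CPM was 0.36, 0.20, 0.24 and 0.07, so the members lay further below the typical gene than their ratios say. The lowest of the 4 averages fell at 1 week for 19 members, at 2 weeks for 16, at 4 weeks for 7 and in the last week for 5. It was closest to 0 at 8 weeks for 22 members. The 3 members nearest the threshold had an average of -0.401, -0.401 and -0.405 in their least affected week, and the 3 genes just outside had -0.396, -0.394 and -0.386.

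Single rabbits mostly shared the direction. Of 752 pairs of a member and a rabbit, 689 (91.6%) were lower on the repaired side, against 33.1% of such pairs over all genes with at least 2 CPM, and the selection itself favours this. The repaired side was lower in 16 of 16 rabbits for 15 members, in 14 or 15 rabbits for 24 and in 13 or fewer for 8, with 10 rabbits as the fewest. All 47 members were lower in rabbits 2, 5, 60 and 67. Rabbit 66 at 4 weeks stood apart with 28 members lower and 19 higher, and rabbit 62 at 2 weeks followed with 36 lower. These directions are on unscaled CPM, on which the median log2 ratio over all genes with at least 2 CPM was 0.43 in rabbit 66.

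**Figure D1:**
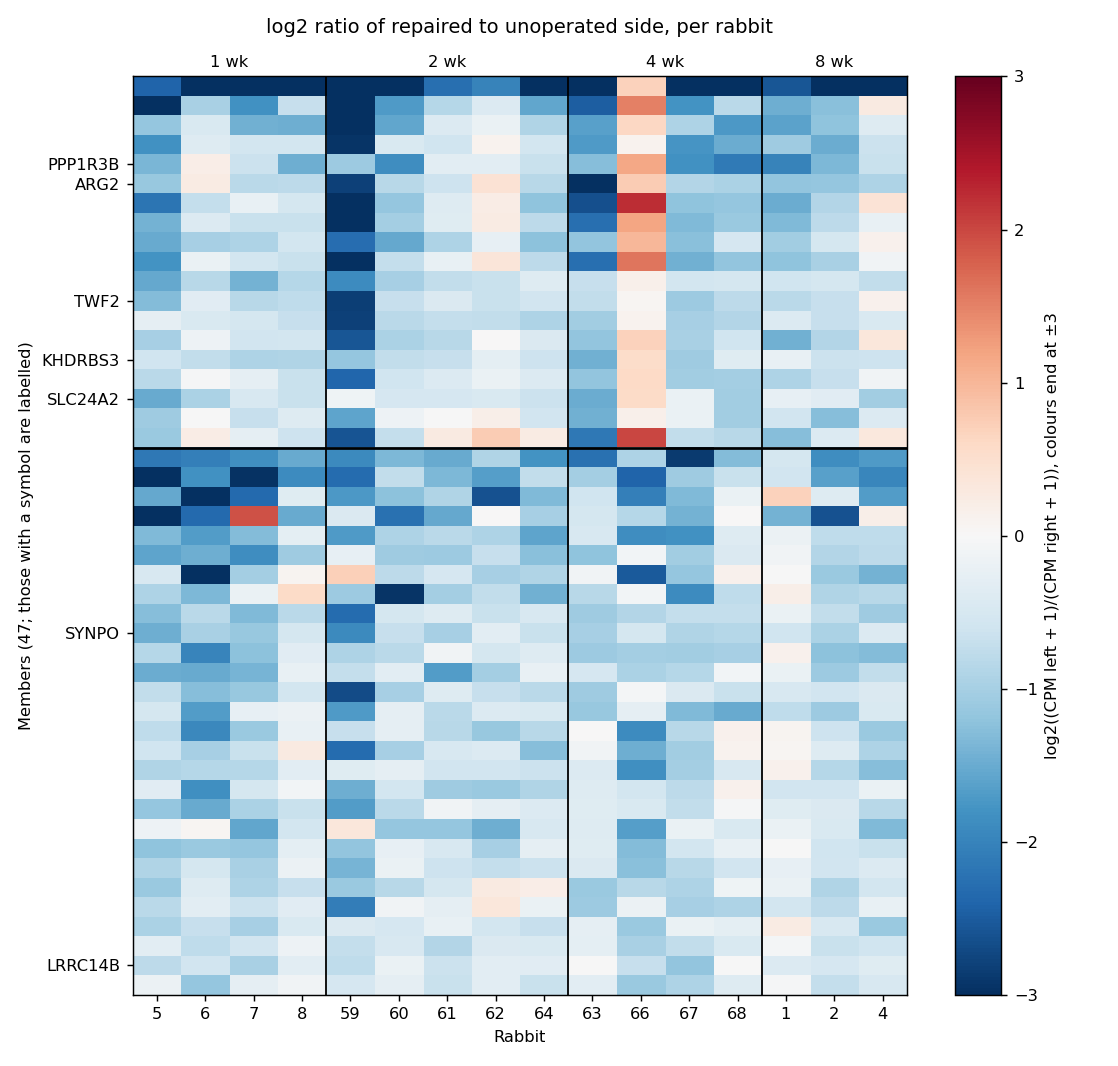
Each row is 1 of the 47 members and each column 1 of 16 rabbits, grouped by weeks after repair, with the colour giving the log2 ratio of repaired to unoperated CPM (blue lower, red higher). The 19 rows above the black line are the members that were higher on the repaired side of rabbit 66, and the 28 below it were lower there.

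SYNPO, an actin-associated protein that links actin bundles, was lower in all 16 rabbits. At 1 week it measured 369, 384, 299 and 343 CPM in unoperated and 105, 128, 97.1 and 193 CPM in repaired muscle of rabbits 5 to 8. At 2 weeks the unoperated range was 229 to 419 CPM and the repaired range 60.4 to 210 CPM. The groups did not overlap in either week, and rabbit 59 had the lowest repaired value. At 4 weeks unoperated muscle had 272, 333, 344 and 261 CPM and repaired muscle 103, 172, 152 and 146 CPM. At 8 weeks the unoperated side had 352, 311, 319 and 314 CPM and the repaired side 237, 145 and 213 CPM. SYNPO was thus without overlap at all 4 weeks, and its mean log2 ratio was -1.03 ± 0.39 (SD, n = 4) at 1 week and -0.65 ± 0.27 (SD, n = 3) at 8 weeks.

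TWF2, which binds actin monomers and caps filament ends, was lower in 14 of 16 rabbits. It measured 359, 481, 358 and 568 CPM in unoperated and 115, 249, 145 and 275 CPM in repaired muscle at 1 week. At 2 weeks it had 687, 711, 578, 533 and 504 CPM in unoperated muscle and 62.2, 452, 427, 249 and 299 CPM in repaired muscle of rabbits 59, 60, 61, 62 and 64. The repaired values lay below all unoperated values in both weeks, and rabbit 59 was again the lowest. At 4 weeks the ranges were 442 to 948 CPM and 243 to 372 CPM, without overlap. At 8 weeks the repaired side of rabbit 4 (389 CPM) lay inside the unoperated range of 282 to 410 CPM, while rabbits 1 and 2 had 200 and 227 CPM. The mean log2 ratio was -0.81 ± 0.40 (SD, n = 4) at 1 week and -0.46 ± 0.51 (SD, n = 3) at 8 weeks. In rabbit 66 the ratio was 0.05 on unscaled CPM, while TMM-scaled levels were 442 CPM on the unoperated and 340 CPM on the repaired side, so its direction there flips with the scaling.

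LRRC14B, a leucine-rich repeat protein, was lower in 16 of 16 rabbits by a smaller margin. It had 25.7, 20.5, 25.4 and 21.8 CPM in unoperated and 11.5, 8.77, 8.90 and 14.1 CPM in repaired muscle at 1 week, without overlap. At 2 weeks the repaired value of rabbit 60 (13.4 CPM) lay inside the unoperated range of 11.9 to 17.4 CPM. At 4 weeks rabbit 68 had 13.7 CPM on both sides after TMM scaling, and its ratio on unscaled CPM was -0.01. The groups overlapped from 2 weeks on, and the mean log2 ratio was -0.66 ± 0.28 (SD, n = 4) at 1 week and -0.42 ± 0.07 (SD, n = 3) at 8 weeks.

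KHDRBS3, a STAR-family RNA-binding protein, measured 12.1, 18.9, 20.7 and 19.6 CPM in unoperated and 6.09, 7.13, 7.49 and 8.24 CPM in repaired muscle at 1 week. At 2 weeks it had 16.3 to 23.9 CPM in unoperated and 5.01 to 14.3 CPM in repaired muscle. The groups were apart in both weeks. At 4 weeks the unoperated library of rabbit 66 had 6.05 CPM, against 16.9, 16.9 and 15.3 CPM in rabbits 63, 67 and 68, and repaired muscle had 4.18, 7.03, 6.25 and 11.7 CPM. The overlap at 4 weeks came from the low unoperated value of rabbit 66. The mean log2 ratio was -0.79 ± 0.15 (SD, n = 4) at 1 week, -0.58 ± 0.88 (SD, n = 4) at 4 weeks and -0.49 ± 0.23 (SD, n = 3) at 8 weeks.

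ARG2, which splits arginine inside mitochondria, was lower in 13 of 16 rabbits. Its levels at 2 weeks were 76.9, 95.1, 78.7, 63.7 and 74.2 CPM in unoperated and 6.60, 54.6, 50.7, 63.9 and 36.4 CPM in repaired muscle of rabbits 59, 60, 61, 62 and 64. At 4 weeks it had 78.6, 24.1, 103 and 75.2 CPM in unoperated muscle of rabbits 63, 66, 67 and 68, and 6.37 CPM in rabbit 63 and 30.9 to 46.3 CPM in the other 3 in repaired muscle. The repaired sides of rabbits 59 and 63 were by far the lowest, and rabbit 66 was low on its unoperated side. At 8 weeks the groups were apart, with 57.7, 39.7, 30.2 and 55.8 CPM against 25.4, 15.5 and 26.2 CPM. The mean log2 ratio on unscaled CPM was -0.63 ± 0.60 (SD, n = 4) at 1 week and -1.09 ± 0.14 (SD, n = 3) at 8 weeks. The limma-voom fit on TMM-scaled counts gave -1.08 and -1.03, so a deepening with time is not seen on that measure.

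PPP1R3B was a rare transcript, and its lowest ratio on unscaled CPM came last. It had 5.84, 5.43, 4.30 and 9.21 CPM in unoperated and 1.25, 4.15, 1.70 and 2.15 CPM in repaired muscle at 1 week, without overlap. At 8 weeks it had 23.7, 7.04, 2.82 and 8.12 CPM in unoperated and 5.17, 1.84 and 4.29 CPM in repaired muscle. The groups overlapped at 8 weeks through the unoperated library of rabbit 3. The mean log2 ratio was -0.82 ± 0.77 (SD, n = 4) at 1 week and -1.34 ± 0.67 (SD, n = 3) at 8 weeks. The limma-voom fit on TMM-scaled counts gave -1.41, -1.68, -1.85 and -1.22 in the order of the weeks. Which week was lowest thus differs between both measures. SLC24A2, whose mean level lies under the 5 CPM asked of named genes and which was named after its values were seen, had 5.34, 8.04, 4.86 and 3.07 CPM in unoperated and 0.90, 2.37, 2.30 and 1.24 CPM in repaired muscle at 1 week. It was lower in 15 of 16 rabbits, with overlap at 2, 4 and 8 weeks.

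Of the members without a symbol, ENSOCUG00000015392 had the lowest ratios of all members, with a mean log2 ratio of -3.90 ± 1.14 (SD, n = 4) at 1 week and -3.30 ± 0.77 (SD, n = 3) at 8 weeks. It measured 14.1, 115, 73.2 and 128 CPM in unoperated and 1.40, 1.42, 2.34 and 6.04 CPM in repaired muscle at 1 week. At 2 weeks the ranges were 479 to 1362 CPM and 4.99 to 154 CPM. The groups were apart in these weeks and at 8 weeks, where they spanned 69.8 to 324 CPM and 2.81 to 55.2 CPM. At 4 weeks unoperated rabbit 66 had 19.5 CPM against 302, 641 and 502 CPM in the others, and the repaired side had 5.02 to 30.3 CPM. The most abundant member without a symbol, ENSOCUG00000025586, showed the same split at 4 weeks, with 1542 CPM in unoperated rabbit 66 against 7681, 14240 and 10050 CPM in the others and 936 to 5322 CPM in repaired muscle.

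**Figure D2:**
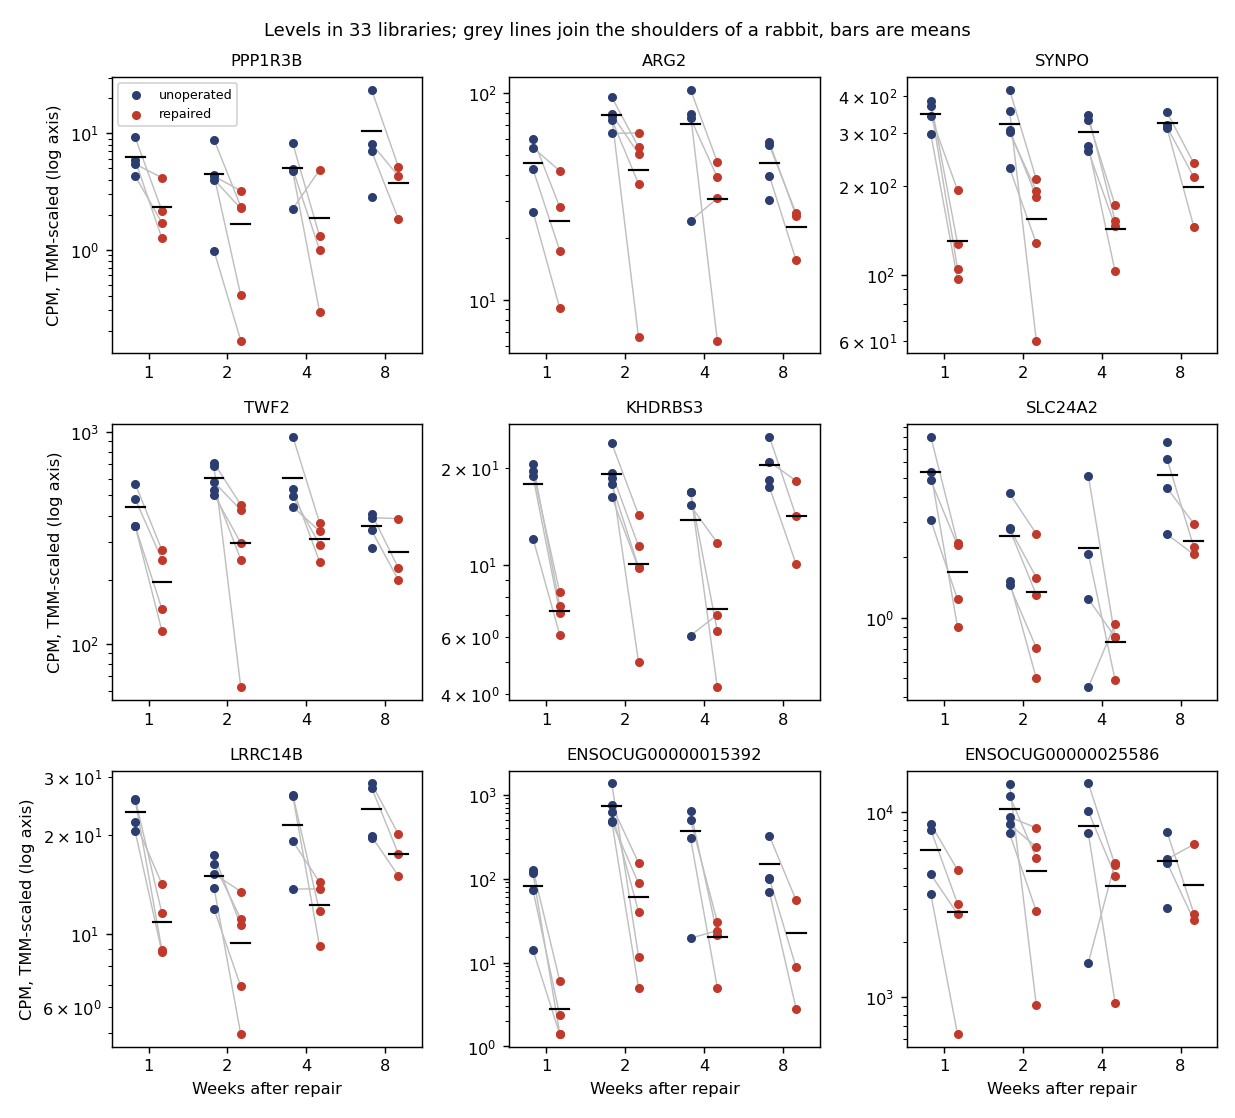
TMM-scaled CPM on a log axis of the 7 members with a symbol and 2 by identifier, in 33 libraries by weeks after repair, with unoperated muscle in blue, repaired muscle in red, grey lines joining the shoulders of a rabbit and black bars at the group means. SYNPO was without overlap at all 4 weeks, and the lines that rise at 4 weeks belong to rabbit 66, except that of rabbit 68 for LRRC14B, which is nearly flat.

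Across all members, every repaired library lay under every unoperated library for 32 of 47 members at 1 week and for 19 in each later week. The share of all genes tested with such a gap was 13.3%, 3.73%, 3.93% and 3.32% in the order of the weeks. Without rabbit 66 the count at 4 weeks was 35 of 47, where 7.38% of all genes had the gap. These counts come from the difference that chose the members and are given as a description.

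The same holds for the calls of limma-voom at a Benjamini-Hochberg adjusted p under 0.05. It called 30 members lower at 1 week and 29 at 2 weeks, where 6.88% and 7.92% of all genes tested were called lower, and 22 members were called in both weeks. With all 34 libraries in the fit the counts were 14 and 8 (0.767% and 1.07% of all genes). At 2 weeks the count was also lower with sample quality weights, at 13 (3.03% of all genes), and with the libraries of that week alone, at 0 (0.00792%). The calls included SYNPO, TWF2, KHDRBS3 and LRRC14B at both weeks and SLC24A2 at 1 week. At 4 weeks 1 member was called lower (0.0464% of all genes) and at 8 weeks 0 (0% of all genes). With the rabbit as a paired replicate block the count at 4 weeks was 11 (0.997% of all genes), with edgeR 12 (0.82%) and with DESeq2 17 (1.99%), and without the repaired library of rabbit 59 it was 16 (1.26%). At 8 weeks 12 members (25.5%) had an unadjusted p under 0.05 in limma-voom, against 3.07% of all genes. With the replicate block it was 21 members, where the share of all genes was not counted. At that week edgeR (0% of all genes), DESeq2 (0.0155%) and the replicate block (0%) called 0 members, and sample quality weights called 7 (0.255% of all genes). The median log2 fold change of the members was -1.29, -1.18, -1.07 and -0.65 at 1, 2, 4 and 8 weeks, against 0.05, 0.06, 0.05 and 0.01 over all genes tested. The count at 2 weeks fell to 8 (1.41% of all genes) without the repaired library of rabbit 59. It fell to 16 to 19 without the unoperated library of rabbit 60, 61, 62 or 64 or the repaired library of rabbit 62. The count at 1 week fell to 18 without the repaired library of rabbit 7. For the fits behind 16 to 19 and 18, the share of all genes called lower is not given here, so these drops are not set against it.

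Levels on 1 side were next compared between weeks of the same series. The rule did not make this comparison, but it chose the members for low values in the same repaired libraries. The shares and medians of all genes, which were not chosen so, are thus no like-for-like comparison. In repaired muscle 44 of 47 members (93.6%) were higher at 8 weeks than at 1 week by their fitted values, against 45.8% of all genes tested. Their median log2 fold change was 0.60 against -0.04 over all genes tested. Oxidative phosphorylation genes, a list without members, also lay closer to control at 8 weeks, with medians of -0.63 at 1 week and 0.03 at 8 weeks. The part of the selection in the rise of the members was not tested. No member passed the test (0 of 47, limma-voom, where 0.085% of all genes were called in either direction). There were 11 members (23.4%) with an unadjusted p under 0.05, against 11.6% of all genes. The test of edgeR called 0 members (0.0541% of all genes), DESeq2 1 (1.3%) and sample quality weights 2 (3.66%). Without the repaired library of rabbit 59, 1 member was called (1.24% of all genes). The fitted log2 difference was 0.90 (SE 0.30, adjusted p = 0.218, limma-voom) for KHDRBS3, 0.74 (SE 0.24, adjusted p = 0.218) for LRRC14B and 0.63 (SE 0.30, adjusted p = 0.429) for SYNPO. KHDRBS3 passed only with sample quality weights, where the fold change was 0.87.

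In unoperated muscle the same weeks differed by a median of -0.05 over the members. There 18 members were higher at 8 weeks and 29 lower, and limma-voom called 0 of 47 (0% of all genes). An unadjusted p under 0.05 was found for 0 members, against 1.75% of all genes. The calls were 0 by edgeR (0% of all genes) and 0 by DESeq2 (0.0387%). KHDRBS3 differed by 0.20 (SE 0.25) and LRRC14B by 0.02 (SE 0.21) on that side. Whether the change between weeks differs between the shoulders was not tested.

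Between 2 and 4 weeks the median over the members was 0.27 in repaired and 0.00 in unoperated muscle. In repaired muscle 29 of 47 members were higher at 4 weeks, and in unoperated muscle 24, where 46.4% and 48.7% of all genes were higher. Limma-voom called 0 members on either side (0% of all genes in each), and so did edgeR (0% in each). DESeq2 called 0 members as well, where it called 0.789% of all genes in repaired and 0.0309% in unoperated muscle. An unadjusted p under 0.05 was found for 3 members (6.38%) in repaired and 6 (12.8%) in unoperated muscle, against 8.36% and 4.34% of all genes. The 19 members that were higher on the repaired side of rabbit 66 had a median of -0.44 and the other 28 of 0.32 between these weeks in unoperated muscle, where rabbit 66 is 1 of 4 rabbits at 4 weeks.

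**Figure D3:**
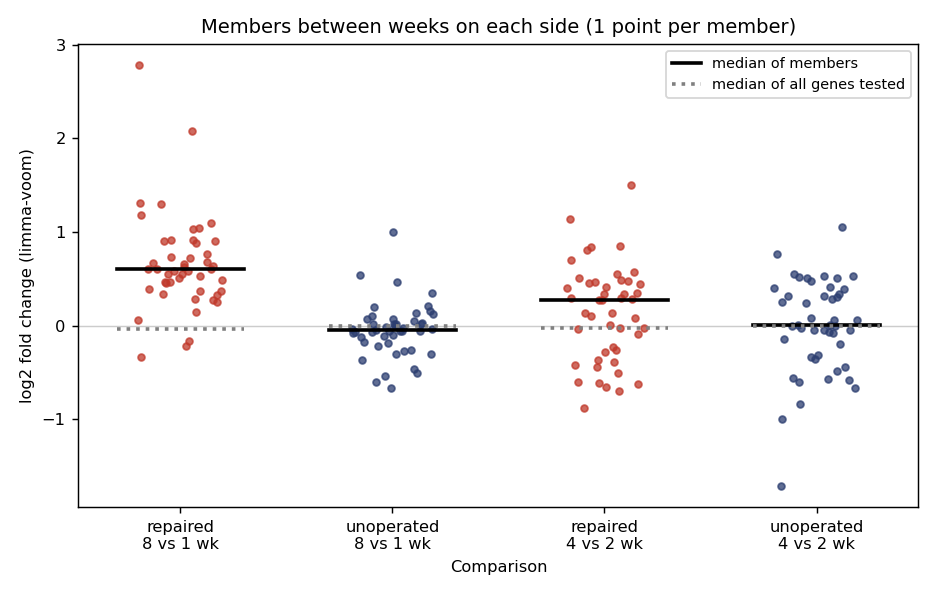
Each point is the log2 fold change of 1 member between weeks on 1 side (limma-voom), with the black bar at the median of the 47 members and the dotted bar at the median of all genes tested. The repaired side at 8 against 1 week has its median at 0.60, and the other 3 comparisons have theirs between -0.05 and 0.27.

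The split in rabbit 66 was followed into the other rabbits. The 19 members higher on its repaired side include PPP1R3B, ARG2, TWF2, KHDRBS3, SLC24A2 and both members printed by identifier, and the 28 lower there include SYNPO and LRRC14B. Both sets were formed after these values were seen, and no test was made of them. They rest on unscaled CPM, on which the ratios of the 19 in rabbit 66 began at 0.05. Members near 0 can thus change sets with TMM scaling, as TWF2 would. In the unoperated library of rabbit 66, 16 of the 19 lay below the other 3 unoperated libraries of 4 weeks and 1 above. Their median log2 difference to the mean of those libraries was -1.40. Choosing the 19 by their ratio in this rabbit favours low unoperated values. Of the 28, 7 lay below and 15 above, and of all 12937 genes tested 3931 lay below and 3682 above. On the repaired side the median difference of the 19 to the other 3 rabbits was 0.29.

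The members of the 19 also moved together in the libraries of the other rabbits. All of these but rabbit 3 counted in the rule, so this is no independent check. A member higher in rabbit 66 could reach the threshold at 4 weeks only through low ratios in the other rabbits of that week. Without rabbit 66 the median of the averages at 4 weeks was -1.24 for the 19 and -0.65 for the 28. Over the 16 unoperated libraries without rabbit 66, after the group means were taken out, the median Pearson correlation between pairs was 0.56 within the 19, 0.19 within the 28 and -0.18 between both sets. Over all genes with at least 2 CPM it was 0.00. In the 15 repaired libraries the medians were 0.70, 0.59 and 0.28. These are correlations across genes that share libraries and depth, given as a description.

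**Figure D4:**
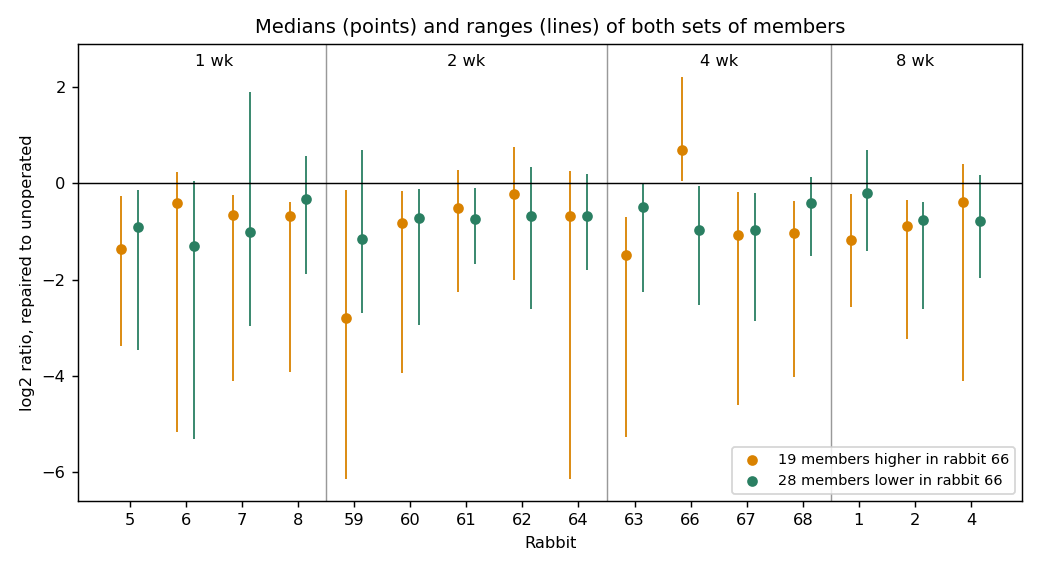
Points are medians and lines the lowest to highest log2 ratio of repaired to unoperated CPM over the 19 members that were higher (orange) and the 28 that were lower (green) on the repaired side of rabbit 66, for 16 rabbits grouped by week. The medians lie at 0.69 and -0.97 in rabbit 66 and at -2.79 and -1.15 in rabbit 59, and both are below 0 in the other 14 rabbits.

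Some genes of slow and fast fibres were set beside this split. MYH7B, a myosin heavy chain related to that of slow fibres, and TNNT3, ATP2A1, ENO3 and PYGM, the fast troponin T, fast calcium pump, muscle enolase and muscle glycogen phosphorylase, are not members and were picked because their values differed in rabbit 66, so the values below describe these 5 genes and no fibre type as a whole. In the unoperated library of rabbit 66, MYH7B measured 39.2 CPM against 165, 217 and 184 CPM in the other 3. TNNT3 measured 20528 CPM there against 10030, 7792 and 7250 CPM. Over the 16 other unoperated libraries, 18 of the 19 correlated positively with MYH7B (median r 0.65), and 1 of the 19 did so with TNNT3 (median r -0.69). Of the 28, 6 correlated positively with MYH7B (median r -0.18) and 23 with TNNT3 (median r 0.34). ATP2A1, ENO3 and PYGM had medians of -0.66, -0.63 and -0.58 over the 19 and of 0.43, 0.46 and 0.46 over the 28. In the 15 repaired libraries without rabbit 66, the median r with MYH7B was 0.81 over the 19 and 0.15 over the 28, and with TNNT3 it was -0.13 and 0.55. Over the 19 in repaired muscle, ATP2A1, ENO3 and PYGM had medians near 0, of -0.06, -0.06 and 0.03, and over the 28 of 0.62, 0.59 and 0.66.

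MYH7B and the 19 did not move together in every rabbit. On unscaled CPM, MYH7B was lower on the repaired side in 9 of 16 rabbits, where the median log2 ratio of the 19 was -2.79 to -0.21. It was higher in 7, where that median was -1.07 to 0.69. The direction flips with TMM scaling in rabbits 7 and 8. There MYH7B had ratios of 0.08 and 0.02, but TMM-scaled levels of 114 and 143 CPM in unoperated and 87.3 and 119 CPM in repaired muscle. In rabbit 59 it had 218 CPM in unoperated and 12.8 CPM in repaired muscle, and the median log2 ratio of the 19 was -2.79. In rabbit 63 it had 165 and 17.4 CPM with a median of -1.49, and in rabbit 5 64.5 and 11.4 CPM with a median of -1.37. MYH7B was higher on the repaired side of rabbit 6 (147 and 188 CPM), rabbit 64 (98.2 and 152 CPM) and rabbit 67 (217 and 259 CPM), where the median of the 19 was -0.41, -0.67 and -1.07. In bulk tissue, fewer fibres of a type and less RNA per fibre cannot be told apart, and the part of fibre type in the members' values was not tested.

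Markers of other cells were measured on both sides. The summed level of 8 of 10 fibroblast and fibro-adipogenic markers with a symbol was 622 to 3606 CPM in unoperated and 679 to 58016 CPM in repaired libraries, and the highest value was that of repaired rabbit 59. Adipocyte markers (3 of 9) summed to 148 to 380 CPM and 329 to 1237 CPM, macrophage markers (5 of 9) to 3.14 to 43.4 CPM and 2.08 to 391 CPM, and endothelial markers (3 of 7) to 126 to 256 CPM and 110 to 629 CPM. CD34, the only 1 of 5 satellite cell markers with a symbol, lay at 18.1 to 41.5 CPM and 14.9 to 126 CPM, and 0 of 7 Schwann cell markers had a symbol. None of the measured markers was at 0 throughout a group. These ranges pool the weeks. At 1 week the fibroblast sum was 1446 to 1900 CPM in unoperated and 5288 to 18817 CPM in repaired libraries, and the groups overlapped at the later weeks. Limma-voom called 2 adipocyte markers higher at 1 week, 1 at 2 weeks and 1 at 4 weeks, and at 2 weeks 5 fibroblast markers and 1 endothelial marker higher. It called 0 macrophage and 0 satellite cell markers at any week, where 1 macrophage marker at 2 weeks and CD34 at 1, 2 and 4 weeks had an unadjusted p under 0.05. At 1, 2, 4 and 8 weeks such a p was found for 5, 8, 5 and 0 of the 8 fibroblast markers. For the 3 adipocyte markers the counts were 3, 1, 3 and 0. Over all genes tested, 33.3%, 35.7%, 15.9% and 3.07% had such a p at these weeks, in either direction. The share of all genes called higher is not given here. The part of these cells in the members' values was not tested.

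The rabbit left out of the rule gave a further look at the members. In rabbit 3, 39 of 47 members (83.0%) were lower on the repaired side, against 67.4% of all genes with at least 2 CPM. The median was -1.50 for the members and -1.12 for all genes, and 8 members were higher. This is 1 pair whose left library failed quality control, so it gives no replicate error.

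Other genes of the pathways around the named members were taken from 9 lists, of which 1 held a member. Of 14 measured genes of glycogen and glucose breakdown, the list of PPP1R3B, limma-voom called 4 lower at 1 week and 3 at 2 weeks, and 0 at 4 and 8 weeks. PPP1CB, the catalytic partner that PPP1R3B targets to glycogen, fell by 0.80 (SE 0.20, adjusted p = 0.0104, limma-voom) at 1 week and by 0.61 (SE 0.16, adjusted p = 0.0191) at 2 weeks. UGP2, which makes the glucose donor for glycogen, fell by 0.88 (SE 0.25, adjusted p = 0.0213) and 1.04 (SE 0.21, adjusted p = 0.00578) on the log2 scale. PPP1R3A and LDHD were called at 1 week, with log2 fold changes of -1.12 (SE 0.38) and -0.65 (SE 0.22), and GYG1, the primer of glycogen, at 2 weeks with -0.86 (SE 0.27). The list's median log2 fold change was -0.84 at 1 week and -0.15 at 8 weeks. PPP1R3B had -1.41 (SE 0.60) and -1.22 (SE 0.63) at these weeks and was not called at any week. As a member it was selected to be low at every week, which favours this difference. HK2, which is not a member, had -0.72 (SE 0.25) and -0.93 (SE 0.26) and was not called either.

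Mitochondrial lists held no member with a symbol. Of 19 oxidative phosphorylation genes 9 were called lower at 1 and 9 at 2 weeks, of 27 mitochondrial ribosome genes 8 and 9, of 14 genes of mitochondrial shape and turnover 11 and 7, and of 9 genes of the citric acid cycle and fatty acid oxidation 2 and 3. Of 11 sarcomere genes 3 were called lower and 1 higher at 1 week and 3 lower at 2 weeks. Of 4 calcium genes and 7 transcription factors, 0 were called at 1 week and 1 of each lower at 2 weeks, and of 3 genes of nerve contact 0 were called. At 4 and 8 weeks 0 genes of these lists were called in either direction. The median log2 fold change of oxidative phosphorylation was -0.63 at 1 week and 0.03 at 8 weeks, where that of the members was -0.65. The members were selected to be low at 8 weeks and the list was not, so this difference follows from the selection.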

How the data were processed

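RNA-seq was made from both supraspinatus muscles of 17 rabbits. Per gene, the table deposited by the authors gives RSEM expected counts, estimated after alignment with STAR to the Ensembl rabbit genome and not scaled. All 34 libraries were read, and groups came from the labels. The members and the gene lists were chosen with earlier results of these data known.

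The left library of rabbit 3 was dropped, and 12937 genes exceeded CPM 1 in 1 or more of the 33 others. After TMM scaling (edgeR 4.0.16), limma-voom (limma 3.58.1) estimated the mean of each group by treatment and week, and p-values were adjusted over all genes by Benjamini-Hochberg in R 4.3.3. DESeq2 1.42.0 and the quasi-likelihood test of edgeR, run as alternatives, took rounded counts. The fit was tested on simulated data. Each rabbit gave both sides, so the numbers pair the libraries: residuals of both shoulders correlated at 0.03 to 0.43 over 16 rabbits, and a fit with the rabbit as a replicate block was made.

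Symbols are of human orthologs, from the parts of the study's supplementary tables that were at hand, for 3349 of the genes tested. Named were members with a symbol and a mean of at least 5 CPM or in a gene list, and at most 2 others by identifier. Promoter motifs were not searched, since no sequence of this build was used. The supplementary tables also hold the authors' own fold changes and p-values, which were not used. Replicates are separate rabbits.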

Additional observations from a re-analysis of the deposited data

Results flagged for a closer look

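Each of the 7 members with a symbol and the 2 printed by identifier was examined within the groups of 4 or 5 libraries for a library far from the others, by the gap to its nearest neighbour over the range of the group. Of 63 such groups 2 stood out, and chance alone gives about 1 in 20. KHDRBS3 had 6.05 CPM in the unoperated library of rabbit 66 at 4 weeks, against 15.3 to 16.9 CPM in the other 3, a gap of 0.85 of the range. ENSOCUG00000015392 had 324 CPM in the unoperated library of rabbit 1 at 8 weeks, against 69.8 to 101 CPM in the other 3, a gap of 0.88 of the range.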

How the results depend on the processing

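The number of members was 165 with TMM-scaled CPM in the rule (all 47 among them), 30 with a pseudocount of 5 CPM, 97 at a threshold of -0.3 and 22 at -0.5; leaving out each rabbit gave 37 to 61. Without rabbit 66 it was 53, of which 39 were among the 47. With all 34 libraries, 14 members were called lower at 1 week (0.767% of all genes), 8 at 2 weeks (1.07%) and 0 at 4 weeks (0%). At 2 weeks the count was 13 (3.03%) with sample quality weights and 0 (0.00792%) with the libraries of that week alone. At 4 weeks it was 2 (0.0948%) with CPM over 1 in at least 5 libraries, 12 (0.82%) with edgeR and 17 (1.99%) with DESeq2. It was 27 (3.21%) with sample quality weights, 10 (0.727%) with the rabbit correlation and 11 (0.997%) with the rabbit as a fixed replicate block. With that week alone it was 0 (0%). Sample quality weights called 7 (0.255%) at 8 weeks. With 1 library left out, the 1 week count was 18 to 38, the 2 week count 8 to 34, the 4 week count 0 to 16 and the last 0. The shares of all genes called lower are not given for each of these fits. Without the repaired library of rabbit 59 the share at 2 weeks was 1.41%, against 7.92% in the main fit. The paired replicate block moved no other count of calls by over 1.5 times. Repaired muscle at 8 against 1 week gave 1 call (1.3%) with DESeq2, 2 (3.66%) with sample quality weights and 0 to 1 with 1 library left out. Both shoulders of a rabbit were also left out, with the rabbits chosen after seeing the data. At 2 weeks the counts were 4 (rabbit 59, 0.536% of all genes) and 8 (rabbit 62, 0.998%). At 4 weeks they were 16 (rabbit 59, 1.2%) and 0 (rabbit 66, 0%). Repaired muscle at 8 against 1 week had 1 (rabbit 59, 1.44%). With all 34 libraries the log2 fold change at 8 weeks reversed for TWF2 (0.19) and ENSOCUG00000025586 (0.76). The share of all genes called lower moved as well, to 0.767% at 1 week with all 34 libraries, to 0.536% at 2 weeks without rabbit 59 and to 3.21% at 4 weeks with sample quality weights. The causes were not tested. Members under 10 CPM rest on few reads in the shallower series.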
